A study of Mus musculus with 15 samples.

Results

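The miR-183 cluster is a group of 3 microRNA (miRNA) hairpins that lie close together on 1 strand. Its main mature products are mmu-miR-183-5p, mmu-miR-96-5p and mmu-miR-182-5p, written below without the mouse prefix. Each was found by name as 1 row of the deposited read count table, so the cluster makes up 3 of the 1205 rows. All 3 passed the abundance filter that kept 426 miRNAs for testing, and they are described here in all 15 plasma libraries of the study.

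The libraries were made from the small RNA of platelet-free plasma, that is, blood from which cells and platelets had been spun out. All mice were male wild-type C57BL/6J animals sampled 24 h after surgery. In 9 libraries the surgery was cecal ligation and puncture (CLP), in which the cecum is tied off and pierced so that its contents leak out, a common way to model sepsis in mice. In the other 6 it was a sham operation. Whether every library came from its own mouse is not stated, so the p-values below speak for the spread between these libraries, which may be technical. The age of the mice is not stated either. Library totals ran from 5274676 to 13576482 counts.

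A miRNA is cut from a hairpin in a longer transcript and guides the silencing complex to messenger RNAs that pair with its seed, the bases near its 5′ end. The miR-183 cluster is best known from sense organs. Photoreceptors, hair cells of the inner ear and sensory neurons make it in large amounts, and mutations in the miR-96 seed cause progressive hearing loss in mice and humans. Epithelia also make it, and in mouse helper T cells miR-182 is induced by interleukin 2 and lowers Foxo1, a transcription factor that restrains proliferation. Plasma mixes RNA released by many tissues. A lower level may come, among other causes, from fewer releasing cells or from less RNA released per cell, which cannot be told apart. The levels given here are shares of reads and not absolute amounts.

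The mature sequences are shown because the 3 products are related but not interchangeable in their seeds. They are from RefSeq on GRCm38.p6, which matched all 3 names, and the capitals mark bases 2 to 8, the seed.
miR-183-5p: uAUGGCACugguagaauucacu
miR-96-5p: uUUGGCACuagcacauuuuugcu
miR-182-5p: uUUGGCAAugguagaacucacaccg
Aligned from the 5′ end without gaps, miR-183-5p and miR-182-5p were identical at 18 of 22 positions. The substitutions from miR-183-5p to miR-182-5p were A2U, C8A, U17C and U22A, counted from 1 at the 5′ end. miR-183-5p and miR-96-5p were identical at 13 of 22 positions, with A2U as their 1 difference inside the seed. miR-96-5p and miR-182-5p were identical at only 12 of 23 positions, yet in the seed they differed by C8A alone and so shared bases 2 to 7. Apart from the members themselves, 1 mouse miRNA in the RefSeq sequences shared bases 2 to 8 with a member. This was miR-1271-5p, which has the seed of miR-96-5p and was not analysed here. None of the 45 count values of the 3 members was fractional, whereas 4.56% of all values in the table were.

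The hairpins lie on the minus strand of mouse chromosome 6 (GRCm38, the assembly also called mm10, the build that the submitters' processing notes name). In the direction of transcription they follow the order Mir183 (chr6:30169668-30169737), Mir96 (chr6:30169446-30169551) and Mir182 (chr6:30165918-30165992). Mir183 and Mir96 are 116 bases apart, and Mir182 follows 3453 bases further on, so that the cluster spans 3820 bases. In GENCODE M21 no gene other than the 3 miRNA genes overlapped the hairpins. The nearest protein-coding genes were Nrf1, 12460 bases away on the Mir182 side, and Ube2h, 41552 bases away on the Mir183 side.

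All 3 members were lower in plasma after CLP than after the sham operation, but not to the same extent. The level of miR-182-5p after CLP was 27.2% of that after sham surgery, that of miR-183-5p was 36.6% and that of miR-96-5p was 51.2%. Levels are given as CPM, the reads of a miRNA scaled to the same library total. Each library's size was adjusted by TMM, a scaling that assumes most miRNAs to be unchanged between libraries. miR-183-5p was the most abundant member and miR-96-5p the least in each of the 15 libraries. Ligation of adapters favours some end sequences, so this order is one of reads and not of molecules.

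miR-183-5p, from the first hairpin of the cluster, lay between 239 and 620 CPM in the 9 CLP libraries, with a median of 338. In the 6 sham libraries it lay between 804 and 1118 CPM, with a median of 1035. Every CLP library was below every sham library. CLP 2 was the highest of the CLP libraries and CLP 3 the lowest. The mean was 371 ± 120 CPM (SD, n = 9) in CLP and 1011 ± 114 (n = 6) in sham. The log2 fold change of CLP over sham was -1.45 ± 0.20 (SE; edgeR quasi-likelihood test, adjusted p = 1.18e-05).

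miR-182-5p, the product with the strongest ties to T cell activation in mice, lay between 68.4 and 256 CPM in CLP libraries, with a median of 97.0. In sham libraries it lay between 357 and 528 CPM, with a median of 453. Here too the groups did not overlap. CLP 5 stood above the other 8 CLP libraries, the highest of which held 154 CPM. The mean was 124 ± 57.3 CPM (SD, n = 9) in CLP and 454 ± 65.5 (n = 6) in sham. The log2 fold change was -1.88 ± 0.25 (SE; edgeR adjusted p = 7.19e-06), and -2.16 without CLP 5.

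miR-96-5p, the deafness-linked member, was the scarcest. It lay between 22.6 and 68.4 CPM in CLP libraries, with a median of 32.8, against 51.0 to 85.2 CPM in sham libraries, with a median of 64.2. CLP 5 was the only CLP library inside the sham range. That library exceeded 4 of the 6 sham libraries, while the other 8 CLP libraries reached 45.3 CPM at most and lay below every sham library. The mean was 34.8 ± 14.3 CPM (SD, n = 9) in CLP and 68.0 ± 13.7 (n = 6) in sham. The log2 fold change was -0.97 ± 0.23 (SE; edgeR adjusted p = 0.00236), and -1.23 without CLP 5. Its lowest raw count was 155 reads in CLP libraries and 369 in sham libraries, so it was the member with the least depth behind it.

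**Figure D1:**
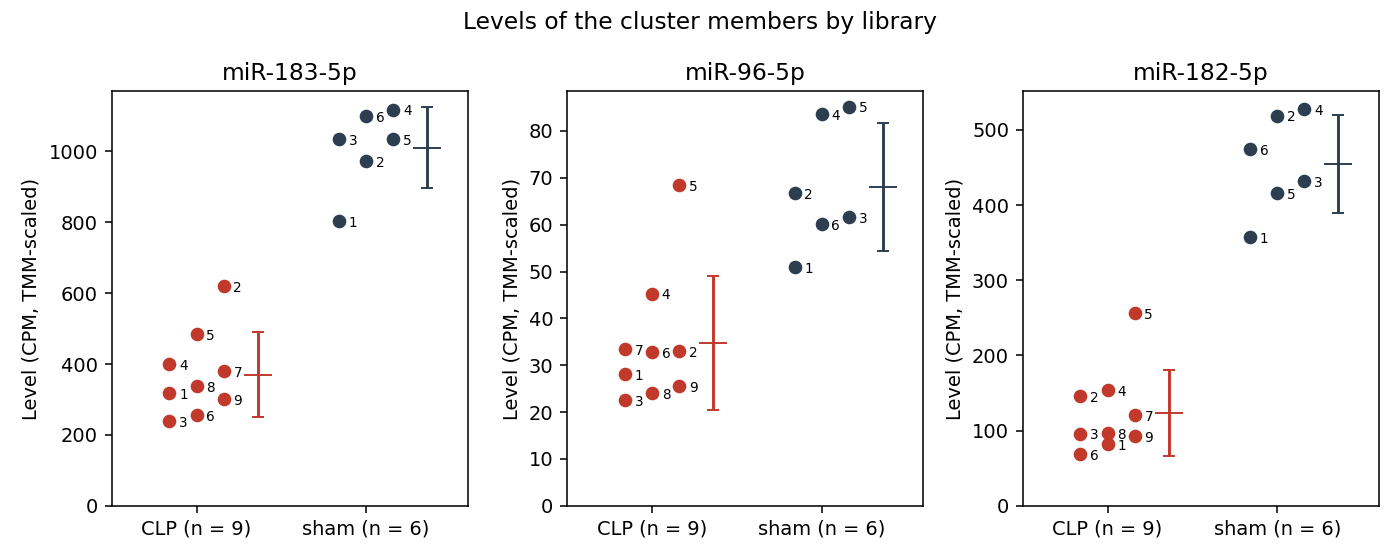
Levels of miR-183-5p, miR-96-5p and miR-182-5p in CPM in each of the 9 CLP and 6 sham libraries. Points are single libraries with their number, and the bar beside each group is the mean with its SD. The groups are apart for miR-183-5p and miR-182-5p, and CLP 5 at 68.4 CPM is the only CLP library within the sham range of miR-96-5p.

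Changes were common in these libraries, which sets the scale for the members. Of the 426 tested miRNAs, 201 passed at an adjusted p under 0.05, or 47.2%. Of all tested, 93 were lower in CLP, or 21.8%, and 108 were higher, or 25.4%. All 3 members were among the lower ones. A fall of at least 2-fold with such a p was found for 16.7%, among them miR-183-5p and miR-182-5p. Every CLP library lay below every sham library for 11.3% of the tested miRNAs, these same members included, and above every sham library for 8.45%. Ranked by log2 fold change from the largest fall, miR-182-5p stood at position 37 of 426, miR-183-5p at 50 and miR-96-5p at 80. The median log2 fold change of all tested miRNAs was 0.11. With library size alone as the scaling it was -0.12, and the members stood at -2.10 for miR-182-5p, -1.67 for miR-183-5p and -1.18 for miR-96-5p. That scaling also turned the split of calls into 126 lower and 90 higher. The members' place in the plasma profile moved with these changes. By mean CPM miR-183-5p ranked 74 in CLP and 52 in sham, miR-182-5p 113 and 75, and miR-96-5p 160 and 134.

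**Figure D2:**
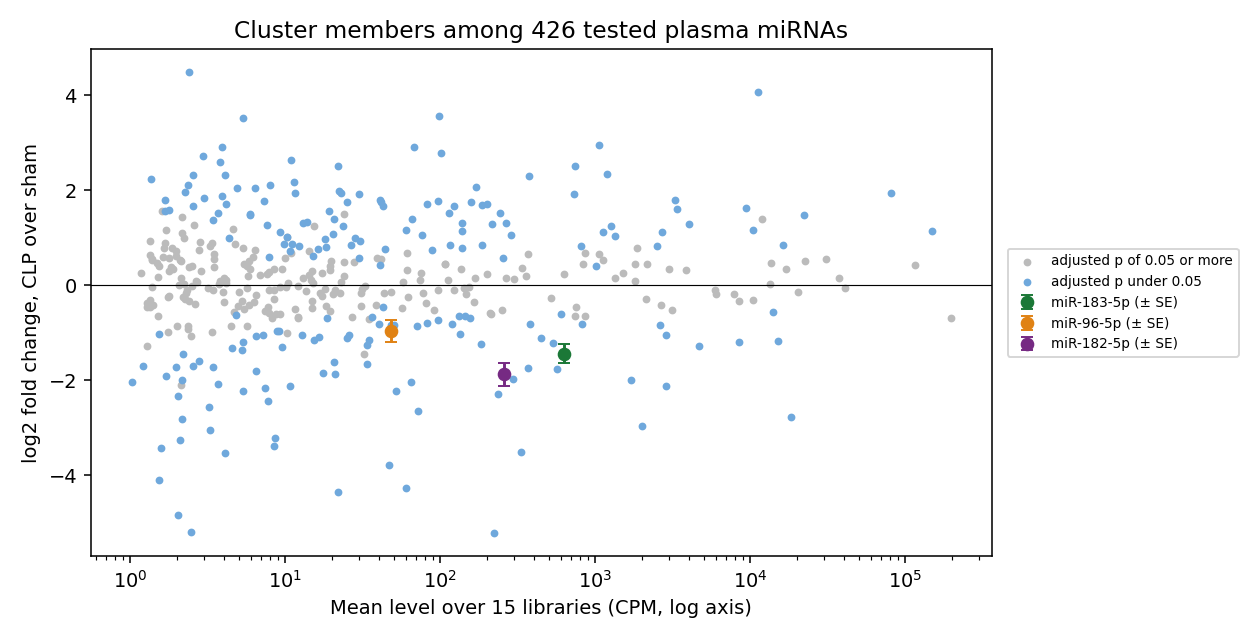
Log2 fold change of CLP over sham against mean level in CPM on a log axis for the 426 tested miRNAs. The 3 cluster members are drawn with their SE and sit between -1.88 and -0.97, inside the cloud of miRNAs that were lower in CLP.

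Since the 3 products are cut from neighbouring hairpins, their ratio within a library shows whether they differed between the groups by the same factor. Such a ratio does not depend on how libraries are scaled. The 3 pairs of members were compared, with a pseudocount of 0.5 counts, with each of the 5005 possible splits of 15 libraries into 9 and 6 as an exact permutation test, two-sided.

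The clearest difference was between miR-96-5p and miR-182-5p. For each read of miR-182-5p there were between 0.226 and 0.480 reads of miR-96-5p in CLP libraries, with a median of 0.276. In sham libraries the ratio lay between 0.127 and 0.205, with a median of 0.143. All 9 CLP libraries exceeded all 6 sham libraries, with CLP 6 the highest. How often the ratios of other miRNA pairs separate the groups in this way is not given here. In log2 fold change, 56.2% of 272 other pairs of neighbouring miRNAs were at least as far apart as these 2 members. The mean log2 ratio was -1.80 ± 0.33 (SD, n = 9) in CLP and -2.75 ± 0.25 (n = 6) in sham. The difference was 0.95 ± 0.15 (SE), a 1.93-fold higher ratio in CLP (exact permutation p = 0.000200, the smallest that these splits can give; adjusted over the 3 pairs p = 0.000599).

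miR-183-5p lay between the other two. Its ratio to miR-182-5p was between 1.89 and 4.24 in CLP libraries, with a median of 3.25, against 1.88 to 2.49 in sham libraries, with a median of 2.29. CLP 5 fell among the sham libraries and the other 8 CLP libraries lay above them. The difference in log2 ratio was 0.48 ± 0.14 (SE; n = 9 and 6, exact permutation p = 0.0130, adjusted p = 0.0195). The ratio of miR-96-5p to miR-183-5p was between 0.0534 and 0.141 in CLP libraries, with a median of 0.0888, against 0.0546 to 0.0824 in sham libraries, with a median of 0.0661. In 7 of 9 CLP libraries it exceeded every sham library, and CLP 2 lay below them all. The difference was 0.47 ± 0.17 (SE; exact permutation p = 0.0294, adjusted p = 0.0294), and its call was lost without sham 3 (0.44, adjusted p = 0.0569) or sham 6 (0.42, adjusted p = 0.0654).

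**Figure D3:**
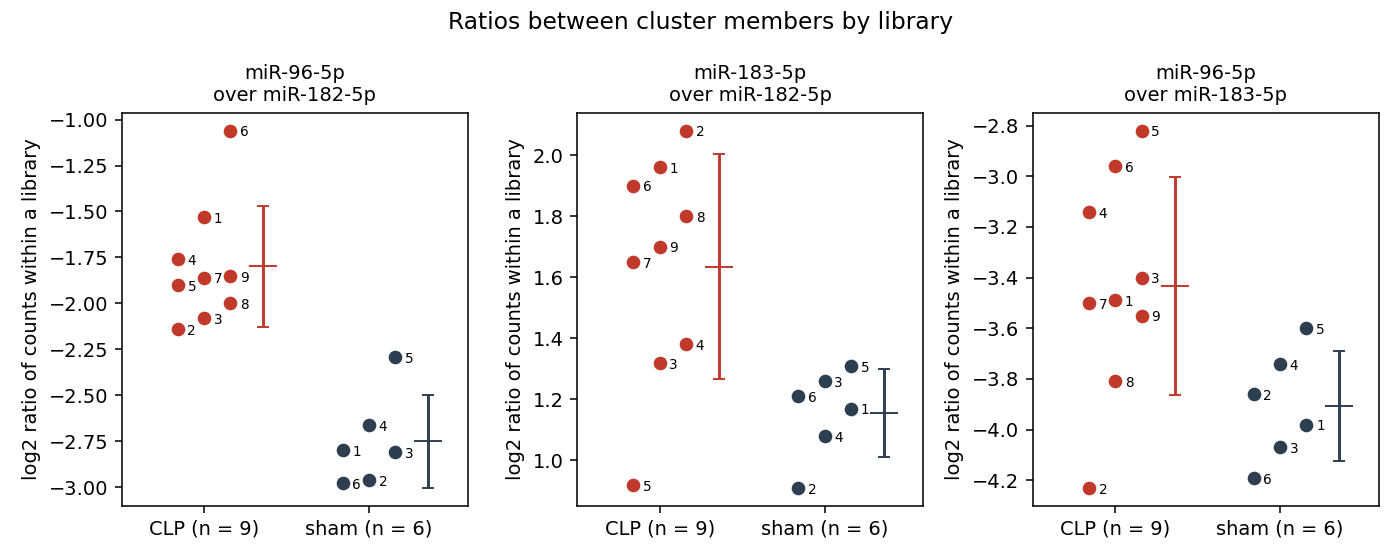
Log2 ratio of the counts of 2 cluster members within each library, for the 9 CLP and 6 sham libraries. Points are single libraries with their number, and bars are the mean with its SD. For miR-96-5p over miR-182-5p the groups do not overlap, while CLP 5 lies among the sham libraries for miR-183-5p over miR-182-5p.

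The mature products differ in base composition and length. GC content was 48.0% for miR-182-5p, 40.9% for miR-183-5p and 39.1% for miR-96-5p, the same order as their falls, and the RefSeq lengths were 25, 22 and 23 bases. When the trend of each library with GC content was removed, the falls were -1.95 for miR-182-5p, -1.81 for miR-183-5p and -1.37 for miR-96-5p on the log2 scale. The difference in the ratio of miR-96-5p to miR-182-5p was then 0.60 and still passed (exact permutation, adjusted p = 0.00240). That of miR-183-5p to miR-182-5p was 0.19 (adjusted p = 0.221) and that of miR-96-5p to miR-183-5p was 0.41 (adjusted p = 0.0767). When the trend with length was removed instead, these differences were 0.70 (adjusted p = 0.00480), 0.10 (adjusted p = 0.481) and 0.60 (adjusted p = 0.0117). Of these alternatives, only the GC trend for the members' own falls had been planned, and the others were chosen after seeing the data. With the length trend removed the falls were -1.56 for miR-182-5p, -1.48 for miR-183-5p and -0.88 for miR-96-5p.

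As a share of all counts, the 3 members together took between 0.0302% and 0.0767% of a CLP library, with a median of 0.0402%, against 0.139% to 0.196% of a sham library, with a median of 0.169%. Of the reads of the cluster, miR-183-5p supplied 70.4% ± 5.21 (SD, n = 9) in CLP and 66.0% ± 2.06 (n = 6) in sham. miR-182-5p supplied 23.0% ± 4.37 in CLP and 29.6% ± 2.14 in sham, and miR-96-5p 6.65% ± 1.56 in CLP and 4.43% ± 0.665 in sham. In CLP 5 the cluster was made up of 59.9% miR-183-5p, 31.7% miR-182-5p and 8.46% miR-96-5p.

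Relative to their mean level, the members varied more among CLP libraries than among sham libraries. The SD of CPM itself was 120 in CLP and 114 in sham for miR-183-5p, and 14.3 and 13.7 for miR-96-5p. For miR-182-5p it was lower in CLP, at 57.3 against 65.5. The coefficient of variation of CPM was 32.4% for miR-183-5p, 41.2% for miR-96-5p and 46.3% for miR-182-5p in CLP, against 11.3%, 20.1% and 14.4% in sham. The CLP values include CLP 5, at 68.4 CPM of miR-96-5p and 256 of miR-182-5p. The other 8 CLP libraries reached 45.3 and 154 CPM at most. The difference in spread was not tested, nor set beside that of other miRNAs. Across the 9 CLP libraries miR-183-5p and miR-182-5p varied together on the log2 CPM scale (Pearson r = 0.77, exact permutation p = 0.0148, adjusted over 3 pairs 0.0222; Spearman rho = 0.83, exact permutation p = 0.00827, adjusted 0.0248). The relation held at r = 0.76 without CLP 2 and CLP 5, the libraries farthest from the median of miR-183-5p. For miR-96-5p with miR-182-5p, r was 0.82 (exact permutation p = 0.00911, adjusted 0.0222) and rho 0.67 (exact permutation p = 0.0589, adjusted 0.0589), and r was 0.58 without CLP 3 and CLP 5, so it rests in part on those libraries. For miR-96-5p with miR-183-5p, r was 0.59 (exact permutation p = 0.0968, adjusted 0.0968) and rho 0.75 (exact permutation p = 0.0255, adjusted 0.0382), and r was 0.34 without CLP 3 and CLP 5. Among the 6 sham libraries r was 0.74 for miR-183-5p with miR-182-5p, 0.52 for miR-96-5p with miR-182-5p and 0.66 for miR-96-5p with miR-183-5p. None of these passed (exact permutation p = 0.0792, 0.301 and 0.162, adjusted 0.238, 0.301 and 0.244). The matching rho values were 0.66, 0.37 and 0.31 (exact permutation p = 0.175, 0.497 and 0.564, adjusted 0.525, 0.564 and 0.564). For each pair, the 2 sham libraries farthest from the median of its first-named member were then left out. Over the 4 others, r was -0.36 for miR-183-5p with miR-182-5p, without sham 1 and sham 4. Without sham 4 and sham 5, r was 0.95 for miR-96-5p with miR-182-5p and 0.71 for miR-96-5p with miR-183-5p.

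**Figure D4:**
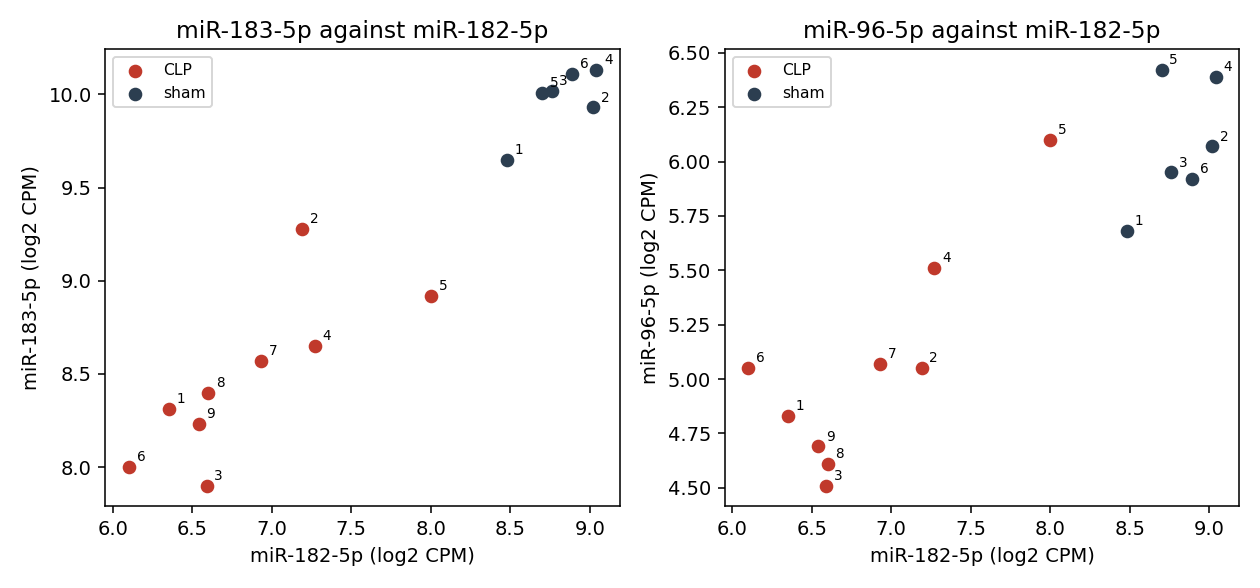
Log2 CPM of miR-183-5p (left) and miR-96-5p (right) against miR-182-5p, with 1 point for each of the 9 CLP and 6 sham libraries and its number beside it. Among CLP libraries, those with more miR-182-5p held more of the other member (r = 0.77 and 0.82), and CLP 5 is the highest in miR-182-5p.

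The other arms of the hairpins were barely read. The sequences of the Mir183 and Mir182 hairpins show where both arms lie, with the 5p product in capitals.
Mir183: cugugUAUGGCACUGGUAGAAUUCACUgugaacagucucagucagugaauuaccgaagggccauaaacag
Mir182: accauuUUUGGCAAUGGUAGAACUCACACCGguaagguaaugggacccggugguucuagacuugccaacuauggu
miR-183-3p had 0 to 9 reads in CLP libraries, with a median of 2, and 0 to 14 in sham libraries, with a median of 9.5. miR-182-3p had 0 to 8 reads in CLP libraries, with a median of 1, and 0 to 10 in sham libraries, with a median of 3. Both were too scarce to be tested, and miR-96-3p was not analysed here. Summed over libraries, miR-183-3p made up 1.08 of every 1000 reads from its 2 arms in CLP (95% exact Clopper-Pearson interval 0.732 to 1.55) and 1.11 in sham (0.824 to 1.45). For miR-182-3p the values were 2.05 in CLP (1.25 to 3.16) and 1.11 in sham (0.705 to 1.67). The intervals overlap for each arm and cover counting error only.

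Some libraries differed in ways that touch these values. CLP 5 had the highest haemolysis index of all 15 libraries, at 0.72. This index, log2 of the red cell miRNA miR-451a over miR-23a-3p, rises when red cells leak into plasma. It averaged -1.41 ± 0.99 (SD, n = 9) in CLP and -0.44 ± 0.67 (n = 6) in sham (exact permutation p = 0.0585). Red cell miRNAs took 10.1% to 37.8% of the counts in CLP libraries, with CLP 5 the highest, and 18.4% to 50.3% in sham libraries. Beside 25.4% higher and 21.8% lower over all tested miRNAs, 1 of the 7 tested red cell miRNAs was higher and 1 lower. These were miR-25-3p, of the miR-106b cluster (1.17 ± 0.27, edgeR adjusted p = 0.00146), and miR-451a, which is matured by Argonaute 2 in place of Dicer (-1.28 ± 0.32, edgeR adjusted p = 0.00313). With the index as a covariate the falls of the members were -1.75 for miR-182-5p, -1.50 for miR-183-5p and -0.82 for miR-96-5p, with edgeR adjusted p between 8.45e-05 and 0.0137. With the red cell miRNAs removed from the table they were -1.96, -1.52 and -1.04.

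Platelet miRNAs took 2.38% to 3.80% of the counts in CLP libraries and 5.38% to 7.04% in sham libraries, and all 6 were read in every library. Their part in the falls of the members was not tested. Of the 6, 1 was higher and 3 were lower, namely miR-24-3p (0.84 ± 0.18), miR-191-5p (-2.78 ± 0.28), miR-151-3p (-1.05 ± 0.20) and miR-199a/b-3p (-0.60 ± 0.21), with edgeR adjusted p between 4.37e-07 and 0.0219. Over all tested miRNAs 25.4% were higher and 21.8% lower. Without sham 5 miR-199a/b-3p no longer passed (edgeR adjusted p = 0.0847). Without miR-191-5p, which is not specific to platelets, the list took 1.66% to 3.17% in CLP and 1.53% to 2.48% in sham.

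Other miRNAs of the cell types known to make the cluster were looked at list by list. Of 7 epithelial miRNAs, 2 were higher in CLP and 2 lower, with a median log2 fold change of 0.20 beside 0.11 for all tested miRNAs. Over all tested miRNAs 25.4% were higher and 21.8% lower. The list took 0.123% to 0.330% of the counts in CLP libraries and 0.173% to 0.306% in sham libraries. miR-205-5p, of stratified epithelium, was at 64.0 ± 26.0 CPM (SD, n = 9) in CLP and 731 ± 346 (n = 6) in sham, a change of -3.51 ± 0.33 (SE; edgeR adjusted p = 2.39e-07). The skin miRNA miR-203-3p was at -0.69 ± 0.26 (edgeR adjusted p = 0.0368), a call lost on leaving out any 1 of 7 libraries (sham 2 or 5, CLP 2, 3, 4, 6 or 8; edgeR adjusted p up to 0.118). The call of miR-203-3p was also lost with the length trend removed (edgeR adjusted p = 0.0546). miR-200a-3p, a brake on epithelial-mesenchymal transition, rose by 1.04 ± 0.25 (edgeR adjusted p = 0.00206). miR-141-3p, which shares its seed, rose by 0.79 ± 0.23 (edgeR adjusted p = 0.00732), but was at 0.44 once the trend with GC content had been taken out (edgeR adjusted p = 0.0960). With the replicate number as a block miR-141-3p did not pass either (0.55, edgeR adjusted p = 0.0846). The other 3, miR-200b-3p, miR-200c-3p and miR-429-3p, did not pass, with changes between 0.16 and 0.58.

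Of the retina and sensory list, 3 of 4 miRNAs could be tested and 1 passed, beside 47.2% of all tested miRNAs. The median of the list was -0.61. The list took 0.00168% to 0.00279% of the counts in CLP libraries and 0.00357% to 0.00794% in sham libraries. Its most abundant tested member in both groups was miR-204-5p, and the share without it was not computed. miR-204-5p, made in the pigment epithelium of the retina and in other tissues such as kidney, was at 10.0 ± 1.97 CPM (SD, n = 9) in CLP and 37.0 ± 13.5 (n = 6) in sham, a change of -1.88 ± 0.23 (SE; edgeR adjusted p = 3.11e-06). miR-124-3p, the neuronal marker, was at 7.66 ± 3.19 CPM in CLP and 11.8 ± 3.13 in sham and did not pass (-0.61 ± 0.32, edgeR adjusted p = 0.121). miR-211-5p, which pigment cells make, did not pass either (0.65 ± 0.43, edgeR adjusted p = 0.227).

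Beside 25.4% higher and 21.8% lower over all tested miRNAs, 2 of 5 lymphocyte miRNAs were higher and 2 lower, with a median of 0.15. They took 0.158% to 0.307% of the counts in CLP libraries and 0.221% to 0.323% in sham libraries. The part of the epithelial, sensory and lymphocyte sources in the members' falls was not tested. miR-155-5p, induced on activation, rose by 2.04 ± 0.37 (edgeR adjusted p = 0.000188), and miR-342-3p was at -0.82 ± 0.21 (edgeR adjusted p = 0.00360). The level of miR-155-5p was low, at 9.13 ± 3.31 CPM (SD, n = 9) in CLP and 2.22 ± 1.22 (n = 6) in sham. The call of miR-150-5p (-0.82 ± 0.33, edgeR adjusted p = 0.0480), which resting lymphocytes hold, depended on each of sham 1, 2, 3 and 5 and CLP 1 and 7, and did not stand when any of these was omitted (edgeR adjusted p up to 0.0712). miR-181a-5p was at 0.40 ± 0.16 (edgeR adjusted p = 0.0465), but whichever of the 15 libraries was omitted, it no longer passed (edgeR adjusted p up to 0.214). It also did not pass in 10 of the 13 processing alternatives, among them library size scaling (edgeR adjusted p = 0.422).

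To see which plasma miRNAs followed the members from library to library, group means were subtracted from log2 CPM and each member was correlated with the 425 other tested miRNAs over the 15 libraries. These correlations are descriptions, picked as the highest of many. miR-182-5p was followed most closely by miR-96-5p (r = 0.78, rho = 0.70), then by miR-7651-5p (r = 0.77, rho = 0.64) and miR-183-5p (r = 0.77, rho = 0.90). miR-96-5p was followed by miR-182-5p, by miR-3074-1-3p (r = 0.76, rho = 0.62) and by miR-3969 (r = 0.63, rho = 0.62), and miR-183-5p was 6th of 425 for it. miR-183-5p was followed by miR-224-5p (r = 0.79, rho = 0.63), miR-182-5p and miR-200a-3p (r = 0.71, rho = 0.74), with miR-96-5p at place 10. Between the groups these followers differed in several ways. miR-3074-1-3p averaged 5.03 ± 2.33 CPM (SD, n = 9) in CLP and 10.4 ± 2.87 (n = 6) in sham and fell, with a change of -1.04 ± 0.30 (SE; edgeR adjusted p = 0.00687). Its call was lost with the haemolysis index as a covariate (-0.81, edgeR adjusted p = 0.0519). miR-7651-5p averaged 1.68 ± 1.58 CPM in CLP and 3.67 ± 1.06 in sham and did not pass (edgeR adjusted p = 0.0987). miR-200a-3p rose, as given above. miR-224-5p averaged 115 ± 39.7 CPM (SD, n = 9) in CLP and 107 ± 14.9 (n = 6) in sham. miR-3969 averaged 2.25 ± 1.0 CPM in CLP and 2.22 ± 0.58 in sham. Neither miR-224-5p nor miR-3969 passed (edgeR adjusted p = 0.693 and 0.963).

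**Figure D5:**
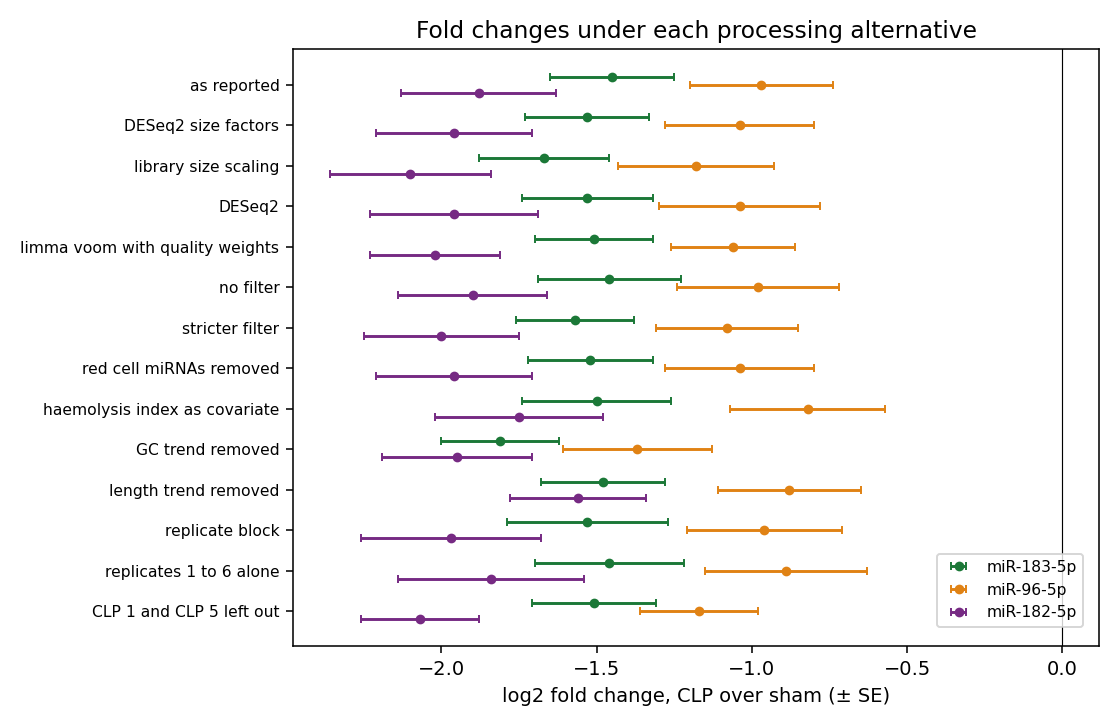
Log2 fold change of CLP over sham with its SE for the 3 members, as reported and under 13 processing alternatives. All values lie below 0, between -2.10 and -0.82, with miR-182-5p the lowest and miR-96-5p the highest in each.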

How the data were processed

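Small RNA sequencing was done on platelet-free plasma, with RNA extracted by Trizol LS and libraries made with a Norgen Biotek kit by adapter ligation and gel excision, per the labels' protocols. The authors deposited expected counts per mature miRNA, unscaled, in a table named for the exceRpt pipeline. Per the submitters' processing notes the genome was mm10. No aligner, trimming step or miRNA release is stated in what was read here. Each of the 15 columns was mapped to its library by label, and groups were taken from the titles.

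Expected counts were rounded and tested over the whole table with edgeR 4.0.16 in R 4.3.3 (filterByExpr, TMM, robust quasi-likelihood F test, no covariate, two-sided, Benjamini-Hochberg over 426 miRNAs, threshold 0.05). At least 99.97% of the counts of every library belonged to tested miRNAs. Each SE was obtained from the log2 fold change and its F value. Log2 CPM used a prior count of 2. Within-library ratios and the haemolysis index used a pseudocount of 0.5. No pair of libraries within a group agreed within sampling noise (lowest chi-square per degree of freedom 432 in CLP and 282 in sham). The code was tested on simulated data.

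Members and lists were chosen with earlier results of these data known. Named miRNAs were the members, their other arms, the 3 most correlated miRNAs of each member, and up to 4 called miRNAs of each list by mean CPM. Members of the lists that did not pass were named in addition. Alternatives were DESeq2 1.42.0, limma 3.58.1 voom, other scalings and filters (the stricter one 10 CPM in 6 libraries), removal of red cell miRNAs, of GC (loess, span 0.75) or of linear length trends, the haemolysis index as a covariate, a replicate block, and leaving out libraries. GC and length came from RefSeq mature sequences, which covered 373 of the tested miRNAs, so those fits ran on these alone.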

Additional observations from a re-analysis of the deposited data

How the results depend on the processing

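The falls of the 3 members kept their direction and their adjusted p under 0.05 in all 28 alternatives. On leaving out 1 library the log2 fold change lay between -1.61 and -1.43 for miR-183-5p, between -1.23 and -0.89 for miR-96-5p, and between -2.16 and -1.86 for miR-182-5p. The difference in log2 ratio then lay between 0.86 and 1.04 for miR-96-5p over miR-182-5p, between 0.42 and 0.56 for miR-183-5p over miR-182-5p, and between 0.40 and 0.57 for miR-96-5p over miR-183-5p. The last was 0.39 with CLP 1 and CLP 5 left out and no longer passed (exact permutation, adjusted p = 0.0664). With the GC trend removed it was 0.41, and that of miR-183-5p over miR-182-5p was 0.19, or 0.10 with the length trend removed. The cause was not tested.

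Same-numbered CLP and sham libraries did not deviate together (r between -0.15 and -0.03 over 6 numbers). These r values were not tested, and they cannot show whether libraries of the same number were handled together. With the replicate block the members stood at -1.53 for miR-183-5p, -0.96 for miR-96-5p and -1.97 for miR-182-5p. The ratio differences over 6 pairs were 1.0, 0.43 and 0.57, and none passed (exact sign-flip test, adjusted p = 0.0938, 0.156 and 0.0938). The 64 sign flips can give no unadjusted p below 0.0312, the value that miR-96-5p over miR-182-5p reached. A single ratio at that floor cannot pass after adjustment over 3 pairs, so this test cannot decide whether that ratio differed. miRNAs called over the whole table numbered 93 lower and 108 higher. On leaving out 1 library there were 82 to 110 lower and 95 to 104 higher. There were 167 lower with no filter, where 1182 were tested, 71 higher with the stricter filter, where 254 were tested, and 71 higher with the replicate block, which used 12 libraries. For the called miRNAs of the other lists and the follower miR-3074-1-3p, 391 alternative values kept their call and direction, 47 lost the call and none changed sign. Among those lost was miR-3074-1-3p with the replicate block (-1.0, edgeR adjusted p = 0.0583). Depth limits the other arms, which were too scarce to test.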

Other observations

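Hairpins of 1 cluster often gave plasma miRNAs whose differences between CLP and sham were unequal. Over 272 other pairs of tested miRNAs whose hairpins lie within 10 kb on the same strand, the median absolute difference in log2 fold change was 1.08, with an upper quartile of 1.77. The largest gap within the miR-183 cluster was 0.91, between miR-182-5p and miR-96-5p, and 153 of the 272 pairs (56.2%) were at least as far apart. The tested miRNAs included both arms of some hairpins and some scarce miRNAs, while the miR-183 cluster entered with its 5p products alone. Pairs were not matched to those products by arm or by level, and the effect of this on the gaps was not tested. Pairs that share a miRNA are not independent, and the comparison is a description with no test.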
